A study of Mus musculus with 5 samples.

Results

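Cytochrome P450 enzymes of families 1 to 4 are the subject of this report: 54 mouse genes whose symbol in the platform annotation is Cyp, a family digit from 1 to 4, a letter and a number. They were taken from the 18193 genes with a probe set of exactly 1 symbol, and each gene was read from its probe set of highest mean. Of the 54 genes, 3 belong to family 1, 35 to family 2, 5 to family 3 and 11 to family 4. They were measured by 67 probe sets, with 43 genes on a single one. Left out by the naming rule were 3 probe sets with several symbols (Cyp2a4 with Cyp2a5, Cyp4a10 with Cyp4a31, Cyp4f16 with Cyp4f37) and the symbols Cyp4a12a and Cyp4f41-ps.

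The study placed RNA of B220+ bone marrow cells on 5 Affymetrix mouse arrays. All mice were 4 weeks old, on the FVB background, and had received no treatment; B220+ cells were enriched with magnetic beads from marrow of tibias and femurs. KA/KA (3 arrays) stands for mice in which both copies of IKKα carry K44A, a knocked-in change that removes the activity of this kinase, and WT (2 arrays) for their wild-type littermates. IKKα acts in NF-κB signalling. As a knock-in, the allele is not limited to B cells. Whether RNA of 1 mouse or of several was put on an array is not given in the labels. P-values therefore measure the spread between these arrays, which may be technical, and precision is limited by how few arrays there are.

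The arrays form 2 sets that cross the genotypes. The median signal of the poly-A control transcripts, bacterial sequences added to the sample, was 7305 for WT 1 and 11897 for KA/KA 1, but only 46.9 to 249 for the other 3 arrays (KA/KA 2, KA/KA 3, WT 2). The labelled cell type was not borne out on those 3: 9 of 9 developing B cell markers were lower there, with list medians of 5.74 to 6.25 against 12.20 and 12.28, while 7 of 7 alveolar type 2 and 8 of 8 alveolar type 1 cell markers were higher. These 3 arrays are called lung-like and the other pair marrow-like; the control transcripts, not the study, define these sets. The level of the control transcripts and the tissue profile differ together and cannot be told apart. Values are log2(signal + 16), on which a signal of 0 reads 4 and the array medians lie between 6.80 and 7.17. The scale understates changes of dim genes. In such bulk RNA, fewer cells of a type and less RNA per cell cannot be told apart.

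P450 enzymes are haem proteins of the endoplasmic reticulum that insert an oxygen atom into fatty acids, steroids, drugs and inhaled chemicals, with electrons supplied by the reductase Por. Families 1 to 3 handle mostly foreign compounds, and family 4 hydroxylates fatty acids and eicosanoids. The liver holds most of them. In the lung, the club cells of the airways are known for a small set of these enzymes, which makes those cells sensitive to toxicants such as naphthalene.

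The sequences before the start sites of 5 genes are shown as a description, and no result rests on them. The genes were picked by their values: Cyp2f2, Cyp2b10, Cyp2s1 and Cyp4b1 had the largest differences between the sets, and Cyp4f18 the largest between the genotypes on the lung-like arrays. Each line gives the 250 bases before the RefSeq start (build GRCm38.p6), 5′ to 3′ on the strand of the gene. The windows are chr7:27119705-27119954 on the plus strand for Cyp2f2, chr7:25897408-25897657 on the plus strand for Cyp2b10, chr7:25816526-25816775 on the minus strand for Cyp2s1, chr4:115647722-115647971 on the minus strand for Cyp4b1 and chr8:72009627-72009876 on the minus strand for Cyp4f18. Capitals mark matches, on either strand, to TATAAA, the TATA box, to CCAAT, the box of that name, to GCGTG, the core letters bound by the dioxin receptor, to CAAGTG, core letters of NKX2 factors, and to GAGGAAG, core letters of ETS factors such as PU.1.
Cyp2f2: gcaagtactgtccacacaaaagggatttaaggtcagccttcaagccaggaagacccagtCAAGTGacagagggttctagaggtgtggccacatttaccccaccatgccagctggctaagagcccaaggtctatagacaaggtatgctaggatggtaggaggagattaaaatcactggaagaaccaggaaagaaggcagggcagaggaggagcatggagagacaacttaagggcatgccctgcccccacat
Cyp2b10: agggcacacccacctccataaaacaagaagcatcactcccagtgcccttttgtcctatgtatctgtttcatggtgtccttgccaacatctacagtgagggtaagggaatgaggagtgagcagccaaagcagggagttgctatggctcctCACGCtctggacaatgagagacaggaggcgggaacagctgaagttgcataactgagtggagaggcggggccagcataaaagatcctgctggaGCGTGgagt
Cyp2s1: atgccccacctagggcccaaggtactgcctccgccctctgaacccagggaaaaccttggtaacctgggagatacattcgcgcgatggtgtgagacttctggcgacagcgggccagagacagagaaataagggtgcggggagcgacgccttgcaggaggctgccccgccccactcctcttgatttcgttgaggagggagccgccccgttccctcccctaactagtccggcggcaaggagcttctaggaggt
Cyp4b1: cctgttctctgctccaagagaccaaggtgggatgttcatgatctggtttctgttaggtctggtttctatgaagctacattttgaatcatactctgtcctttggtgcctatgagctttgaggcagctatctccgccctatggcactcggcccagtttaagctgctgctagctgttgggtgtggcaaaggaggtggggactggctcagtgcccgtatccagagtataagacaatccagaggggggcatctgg
Cyp4f18: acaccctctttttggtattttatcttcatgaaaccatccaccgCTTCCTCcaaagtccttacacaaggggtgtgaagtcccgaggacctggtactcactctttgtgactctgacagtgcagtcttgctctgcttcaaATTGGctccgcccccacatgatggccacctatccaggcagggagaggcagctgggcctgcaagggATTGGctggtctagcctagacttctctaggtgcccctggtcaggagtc

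A GCGTG stood in the Cyp2b10 window on each strand, and a CAAGTG in that of Cyp2f2 on the strand of the gene. The Cyp4f18 window held CCAAT at 2 places and GAGGAAG at 1, all of them on the opposite strand, where the printed letters are the reverse complement. The windows of Cyp2s1 and Cyp4b1 held none of these letters. These motifs were chosen after the windows had been read, and a match is a description only. A promoter was found for 43 of the 54 genes. Of these, 17 held TATAAA (12.4% of all 32851 promoter windows do), 17 CCAAT (33.8%), 10 GCGTG (28.2%), 7 CAAGTG (11.6%) and 5 GAGGAAG (10.6%). The members were counted by gene and the background by window, so the units differ.

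A short list of P450 transcripts was far more abundant on the lung-like arrays than on the marrow-like pair. The club cell enzyme Cyp2f2, its relatives Cyp2b10 and Cyp2s1, the lung enzyme Cyp4b1, Cyp2d22 and the ethanol-oxidising Cyp2e1 were higher by 3.42 to 8.60 log2 units. In all, 14 of 54 genes were higher on the lung-like arrays in limma's test (adjusted p under 0.05; 25.9% of them, against 17.2% of all genes) and 0 were lower (10.4% of all genes). At an unadjusted p under 0.05, 21 members differed in either direction (38.9%, against 39.4% of all genes). Most of the family was dim everywhere: 34 genes lay below the array median on all 5 arrays, as did 27.5% of all genes. All 3 lung-like arrays lay above both marrow-like ones for 25 genes (46.3%, against 33.3% of all genes) and below both for 4 (7.41%, against 23.6%), namely Cyp2c68, Cyp2r1, Cyp4f14 and Cyp4x1. The median difference of the 54 genes was 0.61, beside 0.14 for all genes. The fit without KA/KA 1, or without WT 1, leaves a single marrow-like array, so its calls are not read here. The differences were then 8.85 and 8.35 for Cyp2f2, 7.72 and 7.09 for Cyp2b10, 2.28 and 1.72 for Cyp1a1 and 1.00 and 1.41 for Cyp2c38. The median of all genes was 0.18 and 0.13 in these fits. Cyp1a1, Cyp2c38, Cyp2e1 and Cyp4f16 lost the call without KA/KA 3 or without WT 2, Cyp2j6 without WT 2 and Cyp2c38 without KA/KA 2. Centring the arrays on their medians, which moves the median of all genes from 0.14 to -0.19, left 11 of the 14 called and called Cyp4x1 lower; over all genes it turned 17.2% higher and 10.4% lower into 13.3% and 17.5%.

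**Figure D1:**
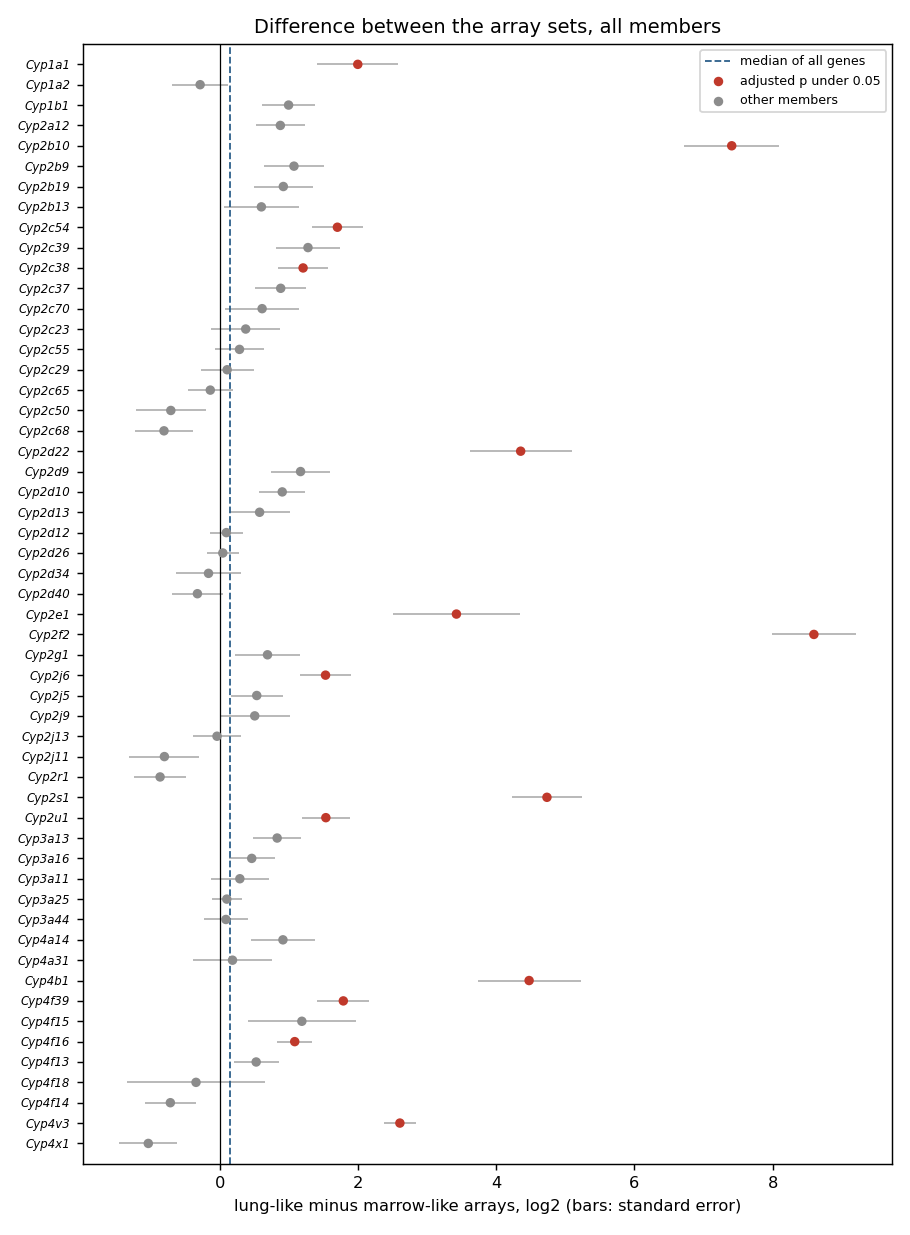
Difference between the lung-like and the marrow-like arrays for all 54 genes, in log2 units (x axis; bars are standard errors from limma), ordered by subfamily, with the median of all 18193 genes as a dashed line at 0.14. The 14 genes in red passed the test and lie to the right, from 1.08 (Cyp4f16) to 8.60 (Cyp2f2).

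Cyp2f2, which turns naphthalene and styrene into reactive products, read 5.20 for KA/KA 1 and 4.70 for WT 1. On the lung-like side it read 12.28 for KA/KA 2, 14.41 for KA/KA 3 and 13.94 for WT 2. The sets did not overlap, and the difference was 8.60 ± 0.60 (SE, n = 3 and 2; limma adjusted p = 0.000362). The marrow-like values are near the bottom of the scale, so the size rests on the constant added: it was 9.60 with 1 and 7.24 with 64 in place of 16. Cyp2b10, a phenobarbital-inducible enzyme, read 5.18 and 4.55 against 10.81, 13.10 and 12.91, in the same order of arrays. Again no lung-like array came near the marrow-like pair (7.41 ± 0.69, adjusted p = 0.000711). Its probe set may also bind other Cyp2b transcripts, but its other 2 probe sets, 1 of them specific by its name, gave 7.10 and 6.13.

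Cyp2s1, an enzyme of epithelia outside the liver, read 5.27 and 5.69 against 9.41, 10.15 and 11.10. The difference of 4.73 ± 0.51 passed the test (adjusted p = 0.00119). Cyp2d22, of a drug-metabolising subfamily, read 6.11 and 5.83 against 8.73, 10.93 and 11.31. It was higher by 4.35 ± 0.74 (adjusted p = 0.00630), and its other probe set gave 2.76. Cyp2e1 read 5.83 and 5.77 against 7.19, 10.06 and 10.41, so that KA/KA 2 stood much closer to the marrow-like pair than the other lung-like arrays did. Its difference of 3.42 ± 0.92 passed narrowly (adjusted p = 0.0340) and lost the call after quantile normalisation or with 64 as the constant.

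**Figure D2:**
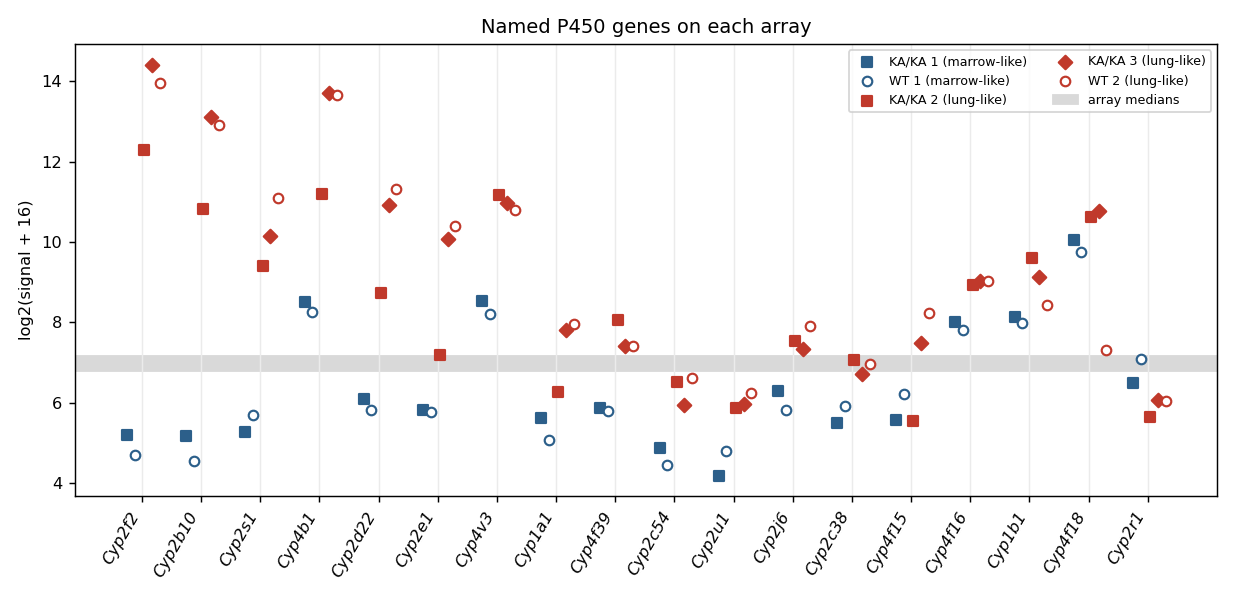
Level of each of the 18 named genes on each array, as log2(signal + 16) (y axis), ordered by the difference between the sets; blue marks the marrow-like and red the lung-like arrays, filled symbols KA/KA and open ones WT, and the grey band the array medians of 6.80 to 7.17. The red symbols of the first 4 genes start at 9.41 while their blue ones end at 8.50; Cyp4f18 has 1 low red symbol, at 7.31 in WT 2, while for Cyp2e1, Cyp4b1, Cyp2b10 and Cyp4f15 the low one is KA/KA 2.

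Several members are neighbours on chromosome 7. Cyp2s1, Cyp2b10, Cyp2b13, Cyp2b9, Cyp2b19, Cyp2g1, Cyp2a12 and Cyp2f2 lie in this order there in the RefSeq annotation, counting measured members only. The first pair and Cyp2f2 were called higher, while the 5 between Cyp2b10 and Cyp2f2 did not pass. The largest difference between the sets among these 5 was 1.07 ± 0.44 for Cyp2b9 (adjusted p = 0.116). They read between 4.21 and 6.91, below the median of each array; levels of different probe sets are not comparable between genes, since probes differ in how well they bind. Further along the chromosome lie Cyp2r1 and Cyp2e1. Cyp2r1, which makes 25-hydroxyvitamin D, read 6.49 and 7.09 on the marrow-like and 5.66, 6.07 and 6.06 on the lung-like arrays, without passing the test (-0.86 ± 0.38, adjusted p = 0.141).

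**Figure D3:**
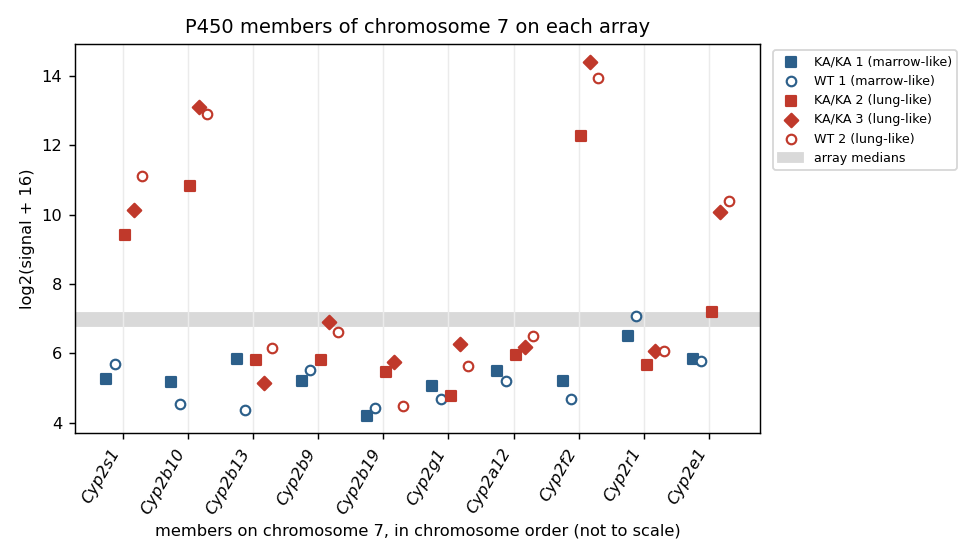
Level of the 10 members on chromosome 7 on each array, as log2(signal + 16) (y axis), in chromosome order (x axis, not to scale); blue marks the marrow-like and red the lung-like arrays, and the grey band the array medians. For the 5 genes from Cyp2b13 to Cyp2a12 red and blue symbols lie at or below 6.91, while for Cyp2b10 and Cyp2f2 the red ones reach 13.10 and 14.41; each gene is to be read between its own symbols, since probe sets differ in binding.

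Of the 11 fatty acid hydroxylases of family 4, 4 were called higher on the lung-like arrays, beside 17.2% of all genes. Cyp4b1, which also activates furan toxins in the lung, read 8.50 and 8.25 on the marrow-like pair and 11.19, 13.71 and 13.66 on the lung-like arrays. It was above the array median on both sides, with 30.1 times the mean signal on the lung-like arrays (4.48 ± 0.75 log2 units, adjusted p = 0.00591). Cyp4v3, the counterpart of a human gene mutated in a crystalline eye disease, read 8.53 and 8.22 against 11.17, 10.98 and 10.78. Here the lung-like arrays lay close together (11.0 ± 0.19, SD, n = 3), and the difference of 2.61 ± 0.23 (adjusted p = 0.000641) is 6.35 times the mean signal. Cyp4f39, whose human counterpart hydroxylates very long fatty acids of the skin barrier, read 5.88 and 5.81 against 8.05, 7.43 and 7.41. It was higher by 1.79 ± 0.38 (adjusted p = 0.0142), and its highest value was that of KA/KA 2, where keratinocyte markers stood at a list median of 12.96 against 5.82 and 6.25 on the other lung-like arrays (log2 summed signal 15.39 against 8.35 and 8.65); their part in this value was not tested. Cyp4f16, of the same subfamily, read 8.0 and 7.82 against 8.92, 9.02 and 9.04 (1.08 ± 0.25, adjusted p = 0.0200). Its other probe set, which may be shared between transcripts, gave -0.20, and the call was lost with both averaged or with median centring.

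The remaining genes of family 4 did not pass. Cyp4f13 read 7.17 and 7.30 against 7.55, 8.0 and 7.73 (adjusted p = 0.280). Cyp4f15 read 5.58 and 6.23 against 5.56, 7.48 and 8.23, with KA/KA 2 as low as the marrow-like pair (adjusted p = 0.308; 0.0211 without that array). Cyp4x1, Cyp4f14, Cyp4a14 and Cyp4a31 lay between 4.24 and 6.52 throughout. Cyp4f18, the enzyme that inactivates leukotriene B4 in mouse neutrophils, is described with the genotypes.

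Family 1, the classical targets of the dioxin receptor Ahr, was split. Cyp1a1 read 5.63 and 5.07 on the marrow-like and 6.28, 7.81 and 7.96 on the lung-like arrays, a difference of 2.00 ± 0.59 that only just passed (adjusted p = 0.0453) and did not under quantile normalisation, median centring, a constant of 64 or genotype as a second term. Cyp1b1, which is common in stromal cells and oxidises oestradiol, was above the array median on all arrays, with 8.13 and 7.99 against 9.60, 9.12 and 8.44. It did not pass (1.00 ± 0.38, adjusted p = 0.0980; 0.0291 without WT 2). Cyp1a2, mainly a liver enzyme, lay between 4.39 and 5.47.

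Of the other called genes, 4 of family 2 remained dim or close to the array medians even where they were higher. Cyp2j6, which makes epoxides of arachidonic acid, read 6.29 and 5.84 against 7.54, 7.34 and 7.91 (1.53 ± 0.38, adjusted p = 0.0244). Cyp2c54, Cyp2c38 and the fatty acid hydroxylase Cyp2u1 did not rise above 7.07 on any array; their differences were 1.70 ± 0.37, 1.21 ± 0.36 and 1.53 ± 0.34. Cyp2c38 passed narrowly (adjusted p = 0.0476) and lost the call with 1 as the constant, quantile normalisation, median centring or genotype as a second term. Cyp2u1 lost it with probe sets averaged, and Cyp2j6 with quantile normalisation. With 1 or 64 as the constant these differences ran from 0.68 to 2.96. Of the subfamilies known best from the liver, 10 of 11 Cyp2c and 5 of 5 Cyp3a genes were below the array median everywhere, and no Cyp3a gene exceeded 6.54. Hepatocyte markers were mostly below it too, with Alb at 6.17 to 6.74 and 9 of 11 below the median on all lung-like arrays. The share of all genes below it on these arrays was not computed. Fga reached 7.53 in KA/KA 2 and Hpx 7.49 in KA/KA 3, and Hpx was called higher on the lung-like arrays (1.82 ± 0.37, limma adjusted p = 0.0128).

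Single genes stood out from otherwise dim subfamilies. Of the 8 Cyp2d genes, the other 7 beside Cyp2d22 did not pass and lay between 4.09 and 7.57, the highest value being that of Cyp2d13 in KA/KA 2. Of the 5 Cyp2j genes, Cyp2j9 read 6.93 and 6.5 on the marrow-like and 6.47, 7.21 and 7.98 on the lung-like arrays, so the sets overlapped (0.51 ± 0.51, adjusted p = 0.507). Cyp2c68 was the Cyp2c gene above the array medians on the marrow-like pair, at 6.89 and 7.12 against 6.49, 5.64 and 6.47. The sets did not overlap, but the difference did not pass (-0.81 ± 0.42, adjusted p = 0.20).

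On the marrow-like pair itself, where the B cell markers were abundant, 7 of the 54 genes were above the array median on both arrays. They were Cyp1b1, Cyp2c68, Cyp4b1, Cyp4f13, Cyp4f16, Cyp4f18 and Cyp4v3, that is, 5 of 7 from family 4, which holds 11 of the 54 genes. The share of all genes above it on both arrays of this pair was not computed, so the count is a description only. Within this pair, KA/KA 1 minus WT 1 was -0.23 for Cyp2c68, -0.12 for Cyp4f13, 0.14 for Cyp1b1, 0.18 for Cyp4f16, 0.25 for Cyp4b1, 0.29 for Cyp4f18 and 0.31 for Cyp4v3, beside 0.05 as the median of all genes. A single array of each genotype allows no test here. Neutrophil markers were also abundant on these arrays (list medians 13.92 and 14.59), and their part in the P450 levels was not tested.

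The lung-like arrays differed among themselves, also within KA/KA. Of the 14 called genes, 9 were lowest in KA/KA 2, and 6 of them (Cyp1a1, Cyp2b10, Cyp2d22, Cyp2e1, Cyp2f2 and Cyp4b1) were 1.53 to 2.87 log2 units higher in KA/KA 3. The share of all genes lowest in KA/KA 2 was not computed, so the count of 9 is a description only. The median of KA/KA 3 minus KA/KA 2 over all genes was 0.02. Cyp2j6, Cyp2c38, Cyp2c54, Cyp2u1, Cyp4f16, Cyp4f39 and Cyp4v3 differed by at most 0.63 between these arrays, in either direction. Cyp2s1 (0.74) lay between. Markers of several cell types differed as well, with list medians of KA/KA 3 minus KA/KA 2 of 1.38 for club cells, 1.23 for ciliated cells, 1.87 for endothelium, 0.76 for alveolar type 1 cells, -0.22 for alveolar type 2 cells, 3.54 for heart muscle and -6.07 for keratinocytes. The club cell markers differed unevenly: Scgb1a1 and Scgb3a1 were 0.15 and 0.14 higher in KA/KA 3, while Bpifa1 read 5.05 in KA/KA 2 against 11.60 and 13.74. The part of the cell mix in the P450 levels was not tested.

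Inside the lung-like arrays, 0 of 54 genes passed limma's test of KA/KA (2 arrays) against WT (1 array), as was the case for 0% of all genes. At an unadjusted p under 0.05 there were 3 of the 54 (5.56%, against 5.61% of all genes): Cyp4f18, Cyp2s1 and Cyp2j11. Both KA/KA arrays lay above the WT array for 14 genes (25.9%, against 31.8% of all genes) and below it for 18 (33.3%, against 37% of all genes). These shares were close to or below those of all genes. The lone WT array is assumed to vary like the KA/KA arrays.

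Cyp4f18 had the largest difference. It read 10.62 in KA/KA 2, 10.77 in KA/KA 3 and 7.31 in WT 2, against 10.05 and 9.76 on the marrow-like pair. The WT array stood alone, below all other arrays (KA/KA minus WT 3.38 ± 0.31, SE, n = 2 and 1; adjusted p = 0.872). Its second probe set was dim, at a mean of 4.25 on the lung-like arrays, and gave -0.03; with both averaged the difference was 1.68. Markers of other cells differed on the same WT array: 6 of 6 macrophage and 5 of 8 neutrophil markers lay below both KA/KA arrays. On the log2 scale, the summed signal of the macrophage markers was 13.68 against 15.65 and 14.95, and that of the neutrophil markers 12.89 against 15.82 and 16.43. Among the neutrophil markers, S100a8 read 13.98 and 15.21 against 11.16 and Lcn2 14.66 and 14.14 against 10.75, whereas Elane was at 4.83, 5.09 and 5.08 and Ltf lay the other way, at 10.25 and 9.27 against 10.80. The part of these cells in the Cyp4f18 value was not tested.

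Cyp1b1 lay above the WT array by 1.16 in KA/KA 2 and 0.68 in KA/KA 3 (0.92 ± 0.39, adjusted p = 0.872). Its other probe sets, both dimmer, gave 1.16 and -1.22, and the average of all gave 0.29. Cyp4f39 (0.33 ± 0.52) and Cyp4v3 (0.29 ± 0.28) differed by about their standard errors or less, and the other probe set of Cyp4v3 gave -0.03. In the opposite direction, Cyp2s1 read below the WT array in both, with differences of -1.70 and -0.95 (-1.32 ± 0.44, adjusted p = 0.872). Cyp2e1 (-1.78 ± 1.33), Cyp4f15 (-1.71 ± 0.98) and Cyp2d22 (-1.48 ± 1.03) were negative mainly through KA/KA 2. Cyp2e1 stood at -3.21 in KA/KA 2 and -0.34 in KA/KA 3, both relative to WT 2. Cyp4f16 was at the level of the WT array (-0.07 ± 0.33), and Cyp2f2 and Cyp4b1 lay on both sides of it, with -1.67 and -2.48 in KA/KA 2 and 0.47 and 0.05 in KA/KA 3.

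**Figure D4:**
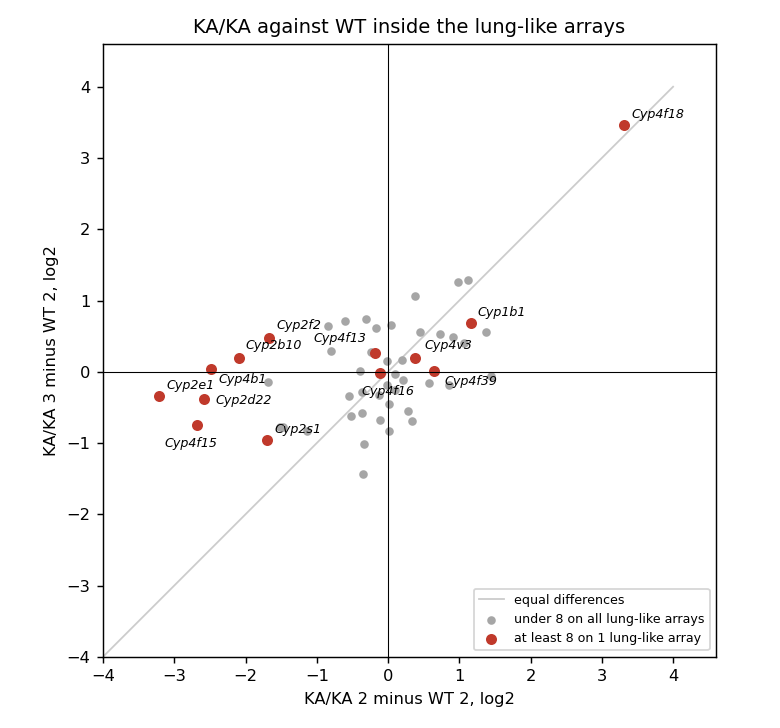
KA/KA minus WT on the lung-like arrays for the 54 genes, in log2 units: KA/KA 2 minus WT 2 (x axis) against KA/KA 3 minus the same WT 2 (y axis), so both axes share 1 array and points on the grey line changed equally; red marks genes reaching 8 on at least 1 lung-like array. Cyp4f18 stands alone at 3.31 and 3.46, while Cyp2e1 (-3.21 and -0.34) and Cyp4b1 (-2.48 and 0.05) lie far to the left and close to 0 on the y axis.

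Over all 5 arrays, the comparison of the series, 0 of 54 genes passed (KA/KA against WT, limma, smallest adjusted p = 0.9999; 0% of all genes), and 0 had an unadjusted p under 0.05 (1.02% of all genes). Blocking on the set gave 0 again (0% of all genes), and 1 of 54, Cyp4f18, had an unadjusted p under 0.05 (2.91% of all genes). Complete separation, with all KA/KA arrays above both WT arrays, occurred for 5 genes (9.26%, against 4.97% of all genes), namely Cyp2c29, Cyp3a16, Cyp3a44, Cyp4a14 and Cyp4f18, of which Cyp4f18 alone exceeded the array median on any array. Complete separation downward occurred for 0 (4.16% of all genes). Cyp4f18 differed by 1.94 ± 0.79, and by 2.06 ± 0.68 with the block. The difference between the sets in the genotype effect was tested as an interaction; 0 of 54 genes passed (0% of all genes), and 1, Cyp4f18, had an unadjusted p under 0.05 (4.67% of all genes).

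The partners and regulators of P450 enzymes were measured beside them, but the reductase Por was not among the 17 genes measured. Of 17 genes, 8 were higher on the lung-like arrays (17.2% of all genes were) and 0 lower (10.4% of all genes), with a median difference of 0.76. The cytochrome b5 reductase Cyb5r3 was higher by 2.91 ± 0.21, from 9.89 and 9.58 to between 12.54 and 12.70. The dioxin receptor Ahr rose by 3.61 ± 0.37, from 8.39 and 7.5 to 11.19, 12.04 and 11.44. Alas1, the first step of haem synthesis outside red cells, was higher by 1.37 ± 0.30.

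Of 19 measured P450 genes outside families 1 to 4, 4 were higher and 1 lower (median 0.75), a share of higher genes near the 17.2% of all genes. Ptgis, the prostacyclin synthase, was higher by 5.59 ± 0.50, the retinoic acid hydroxylase Cyp26b1 by 4.15 ± 0.46 and the oxysterol hydroxylase Cyp7b1 by 4.04 ± 0.66. Cyp39a1, another oxysterol hydroxylase, was the lower one (-1.54 ± 0.37). Of 33 xenobiotic enzymes other than P450, 23 were higher and 0 lower (median 3.41). The flavin monooxygenase Fmo2 was higher by 7.01 ± 0.55, the carboxylesterase Ces1d by 6.08 ± 0.40 and the aldehyde oxidase Aox3 by 6.03 ± 0.33. On the lung-like arrays, 19 of these 33 lay below the WT array on both KA/KA arrays, beside 37% of all genes. Markers of other cells lay below it as well, with 6 of 6 for heart muscle (list medians -6.08 in KA/KA 2 and -2.68 in KA/KA 3), 7 of 8 for ciliated cells, 5 of 8 for endothelium and 5 of 8 for alveolar type 1 cells, whereas 7 of 7 for alveolar type 2 cells lay above it. Their part in the enzyme values was not tested.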

How the data were processed

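Deposited by the authors was an expression intensity per array (5 arrays) and probe set (45101 of them); the submitters' processing notes list MAS5 and no version. The series text speaks of log2 values, but the deposited intensities were linear, with maxima of 21977 to 40821 and a trimmed mean of 500.0 on every array (2% left out at each end). RNA (150 ng) was labelled with biotin, per the labels' protocols. log2(signal + 16) was computed without further scaling. Of the probe sets, 34945 had 1 symbol and entered, 932 had several, 9160 had none and 64 were controls. No filter on level was used, so that all members entered every test; 11 of 54 would pass a filter at the median of all probe sets.

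limma 3.58.1 in R 4.3.3 (lmFit, eBayes with an intensity trend, two-sided) was fitted over 18193 genes with Benjamini-Hochberg adjustment and a threshold of 0.05. The fits were tested on simulated data with noise drawn independently for each gene and array, so differences shared by many genes were not covered. With 3 against 2 arrays an exact permutation test of 1 gene cannot go below 0.1 and was not run. The sets were defined by 24 poly-A control probe sets, with a border at a median log2 of 10. Genes named were those called between the sets, those with a mean of at least 8 in either set, and a short fixed list. At most 5 per direction were added from the genotype comparison inside the lung-like arrays. From each list of partners or other enzymes, some of the 5 genes of smallest p between the sets were named. Other members and marker genes given by name were chosen after their values were seen. Members, lists and sets were chosen with earlier results of these data known. Promoter sequences are from RefSeq. Detection calls were not used here.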

Additional observations from a re-analysis of the deposited data

How the results depend on the processing

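The count of 14 members higher on the lung-like arrays was 25 with signals floored at the 20th percentile of each array and 8 (of 11 tested) with the filter at the median; it ran from 4 to 15 over the fits that left out 1 array, and from 10 to 14 under the other alternatives. The count of lower members was 1 with median centring and 0 to 2 with 1 lung-like array left out (2 without the array labelled KA/KA 2). A gene high on the lung-like arrays alone can pass that filter, so its count supports nothing. Over all genes, 25.9% were called higher with the floor and 23.4% of those tested with the filter, against 17.2% in the main fit. The share was 18.4% without KA/KA 2, 13.7% without KA/KA 3, 15.3% without WT 2 and 13.3% to 17.6% under the other alternatives. Of all genes, 17.5% were lower with median centring and 9.84% without KA/KA 2, against 10.4%. Member counts are to be read beside these shares. Fits without KA/KA 1 or WT 1 leave 1 marrow-like array and are not compared. The genotype counts stayed at 0 members under every alternative run. In the all-array comparison, leaving aside fits with a single WT array, 0 to 2 members had an unadjusted p under 0.05. The count of 2 came with the replicate number as a block, where 564 of 18193 genes had such a p. The replicate number names 1 pair of arrays in each set; with the replicate block, 0 members and 1 of 18193 genes were called. The genotype difference inside the lung-like arrays has no test without the array labelled KA/KA 2 or KA/KA 3, and no value without that labelled WT 2. Cyp4f18 changed sign between the sets without the array labelled WT 2 (0.78), which holds its low lung-like value of 7.31. Cyp4f16 changed sign between genotypes with probe sets averaged (0.39), its probe sets giving -0.066 and 0.84. Cyp4v3 did so without shared probe sets (-0.029, the value of its other probe set). Leaving out 1 array in turn, Cyp4f18 between the sets ran from -0.95 to 0.78. Among the named genes, Cyp1a1, Cyp2c38, Cyp2e1, Cyp2j6, Cyp2u1 and Cyp4f16 lost the call between the sets under some of the alternatives compared. Cyp1b1 (without WT 2) and Cyp4f15 (without KA/KA 2) gained it. Signal over background limits the 34 dim genes.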
